A study of Mus musculus with 12 samples.

Results

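The SOX and forkhead families of transcription factors were examined in the main olfactory epithelium (MOE) of mice lacking the histone gene H2be. Members were taken by gene symbol: every array row whose platform annotation carried only SOX or forkhead symbols was included, apart from Sox9, Sox10, Sox11, Foxj1, Foxi1, Foxd3 and Foxm1, which are kept here as a separate list. This gave 55 genes of the 19938 genes that the array measures with rows of 1 symbol, namely 16 SOX genes and 39 forkhead genes. They were read by 57 probe sets (groups of probes summarised as 1 signal), since Foxf1 and Foxn3 have a pair of probe sets each. The rule uses symbols alone and no signal, but it was written with earlier results of these data known.

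The MOE is the sheet of tissue in the nose that holds the olfactory sensory neurons, which are replaced throughout life, along with the basal stem cells that renew them and supporting, gland, vessel and connective tissue cells. H2be encodes a replication-independent variant of the core histone H2B that olfactory neurons express. In the H2be-KO line its coding sequence was replaced, by recombination in embryonic stem cells, with one for Gap43-mCherry, a membrane-bound red fluorescent reporter, and founders were crossed to C57Bl/6 mice. The comparison was between H2be-KO mice and wild-type (WT) mice without this allele, both at age 6 mo, with 6 arrays per genotype and RNA of a pair of animals pooled on each array. The labels of these arrays give no sex, and a legend of the study refers to H2be-KO mice of this age with array data as male. The question was which transcripts differ in level once H2be is lost, and the RNA came from whole tissue, so fewer cells of a type and less RNA per cell cannot be told apart. Values are log2 signals as deposited, and a difference is the H2be-KO mean minus the WT mean on that scale.

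SOX proteins bind DNA through a high-mobility-group box related to that of the sex-determining factor SRY, bending the minor groove, and often act with a partner factor on the same site. Forkhead (FOX) proteins bind through a winged-helix domain, and some of them can open compact chromatin. Both families are best known for setting cell identity: Sox2 is expressed in olfactory stem cells and supporting cells, SOXC proteins act in newborn neurons, SOXF proteins in vessels, and FOXO proteins carry insulin and stress signals to the genome, leaving the nucleus when they are phosphorylated by the kinase AKT.

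Few members differed between the genotypes. Foxo3, Foxj2, Foxi3 and Foxo6 were lower in H2be-KO and Foxd1 was higher, by 0.19 to 0.45 on the log2 scale, where a member was called at an unadjusted limma p under 0.05, the study's own criterion. The 5 are forkhead genes, of 41 forkhead and 16 SOX probe sets, and a difference between the families was not tested. Over all probe sets, 3.78% were called higher and 1.77% lower. None of the 5 passed at an adjusted p under 0.05 (lowest adjusted p = 0.753, limma with Benjamini-Hochberg adjustment), nor did any of the 28151 probe sets tested. The other 52 member probe sets were not called. All 57 passed the filter on low values, a mean log2 signal above 5.

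The promoters of the called genes are shown first, because these are the stretches at which a change in promoter chromatin would be looked for. RefSeq sequences on build GRCm38.p6, running from 250 bases before the transcription start to 50 bases after it, were matched to 38 of the 55 genes and to 4 of the 5 called genes, all but Foxo6. Foxj2 lies on the plus strand at chr6:122819934-122820233, Foxi3 on the plus strand at chr6:70956356-70956655, Foxo3 on the minus strand at chr10:42276646-42276945 and Foxd1 on the plus strand at chr13:98353995-98354294. Each is written 5′ to 3′ on the strand of its gene, and capitals mark CpG dinucleotides, the pairs at which mammalian DNA is methylated.
Foxj2: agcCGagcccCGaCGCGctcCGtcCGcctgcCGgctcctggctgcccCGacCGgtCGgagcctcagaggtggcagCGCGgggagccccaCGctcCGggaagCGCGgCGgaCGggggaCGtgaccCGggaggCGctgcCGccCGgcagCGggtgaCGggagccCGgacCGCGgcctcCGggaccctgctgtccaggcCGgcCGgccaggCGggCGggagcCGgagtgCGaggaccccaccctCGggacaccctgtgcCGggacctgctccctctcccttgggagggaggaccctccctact
Foxi3: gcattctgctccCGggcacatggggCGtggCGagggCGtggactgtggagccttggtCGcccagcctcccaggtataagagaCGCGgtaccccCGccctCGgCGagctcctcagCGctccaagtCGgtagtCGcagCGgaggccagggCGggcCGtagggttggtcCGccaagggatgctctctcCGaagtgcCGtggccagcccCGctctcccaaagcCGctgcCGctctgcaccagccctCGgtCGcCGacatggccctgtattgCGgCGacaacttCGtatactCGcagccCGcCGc
Foxo3: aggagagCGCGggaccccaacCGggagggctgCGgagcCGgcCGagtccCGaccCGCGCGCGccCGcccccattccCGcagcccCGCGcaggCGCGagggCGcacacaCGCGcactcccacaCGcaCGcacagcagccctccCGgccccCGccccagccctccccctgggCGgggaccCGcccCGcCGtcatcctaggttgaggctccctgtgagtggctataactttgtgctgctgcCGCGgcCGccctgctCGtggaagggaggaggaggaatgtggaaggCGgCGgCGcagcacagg
Foxd1: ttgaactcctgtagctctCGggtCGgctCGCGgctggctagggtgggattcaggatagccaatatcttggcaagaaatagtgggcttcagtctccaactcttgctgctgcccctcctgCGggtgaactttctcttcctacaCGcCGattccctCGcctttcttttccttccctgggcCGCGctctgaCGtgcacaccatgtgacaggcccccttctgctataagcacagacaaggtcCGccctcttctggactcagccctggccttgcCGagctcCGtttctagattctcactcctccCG

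These windows were rich in CpG. Foxj2 held 37 CpG, Foxo3 held 35 and Foxi3 held 31, with GC contents of 78.3%, 75% and 69%, while Foxd1 held 15 at a GC content of 57.7%. The median over the 48 promoters of the members was 18.5 CpG and 62.8% GC, against 7 CpG and 52.7% GC over all 32851 promoters of the same length. Foxd1 lay below the members' median in CpG and the other 3 above it. A forkhead core motif (TGTTTAC on either strand, searched also as GTAAACA) was found in 2 of the 48 member promoters, those of Foxa1 and Sox12, which is 4.17% against 3.65% of all promoters. A SOX core motif (ATTGT on either strand, searched also as ACAAT) was found in 10 of 48, or 20.8%, against 31.0% of all promoters. The 48 windows came from 38 genes, Sox6 among those with several, and their GC content differed from that of all promoters. Neither share therefore compares single genes or sequence of like GC content. Neither motif is in the windows of the 4 called genes, and sites of the motifs can overlap at their ends.

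Counts over the members were read against those over all probe sets. Of the members, 1 of 57 was called higher (1.75%), beside the 3.78% of all tested probe sets, and 4 of 57 were called lower (7.02%), beside 1.77%. The median difference of the members was −0.064, beside 0.023 over all probe sets, and 40 of 57 member differences were below 0 (70.2%), beside 43.8% of all. The SOX probe sets had a median of −0.066 with 13 of 16 below 0, and the forkhead probe sets a median of −0.052 with 27 of 41 below 0. Differences of the members ran from −0.45 to 0.28. In 27 of 57 the difference was within 0.1 of 0, and in 50 of 57 the 95% interval of the difference lay within 0.5 on either side of 0.

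**Figure D1:**
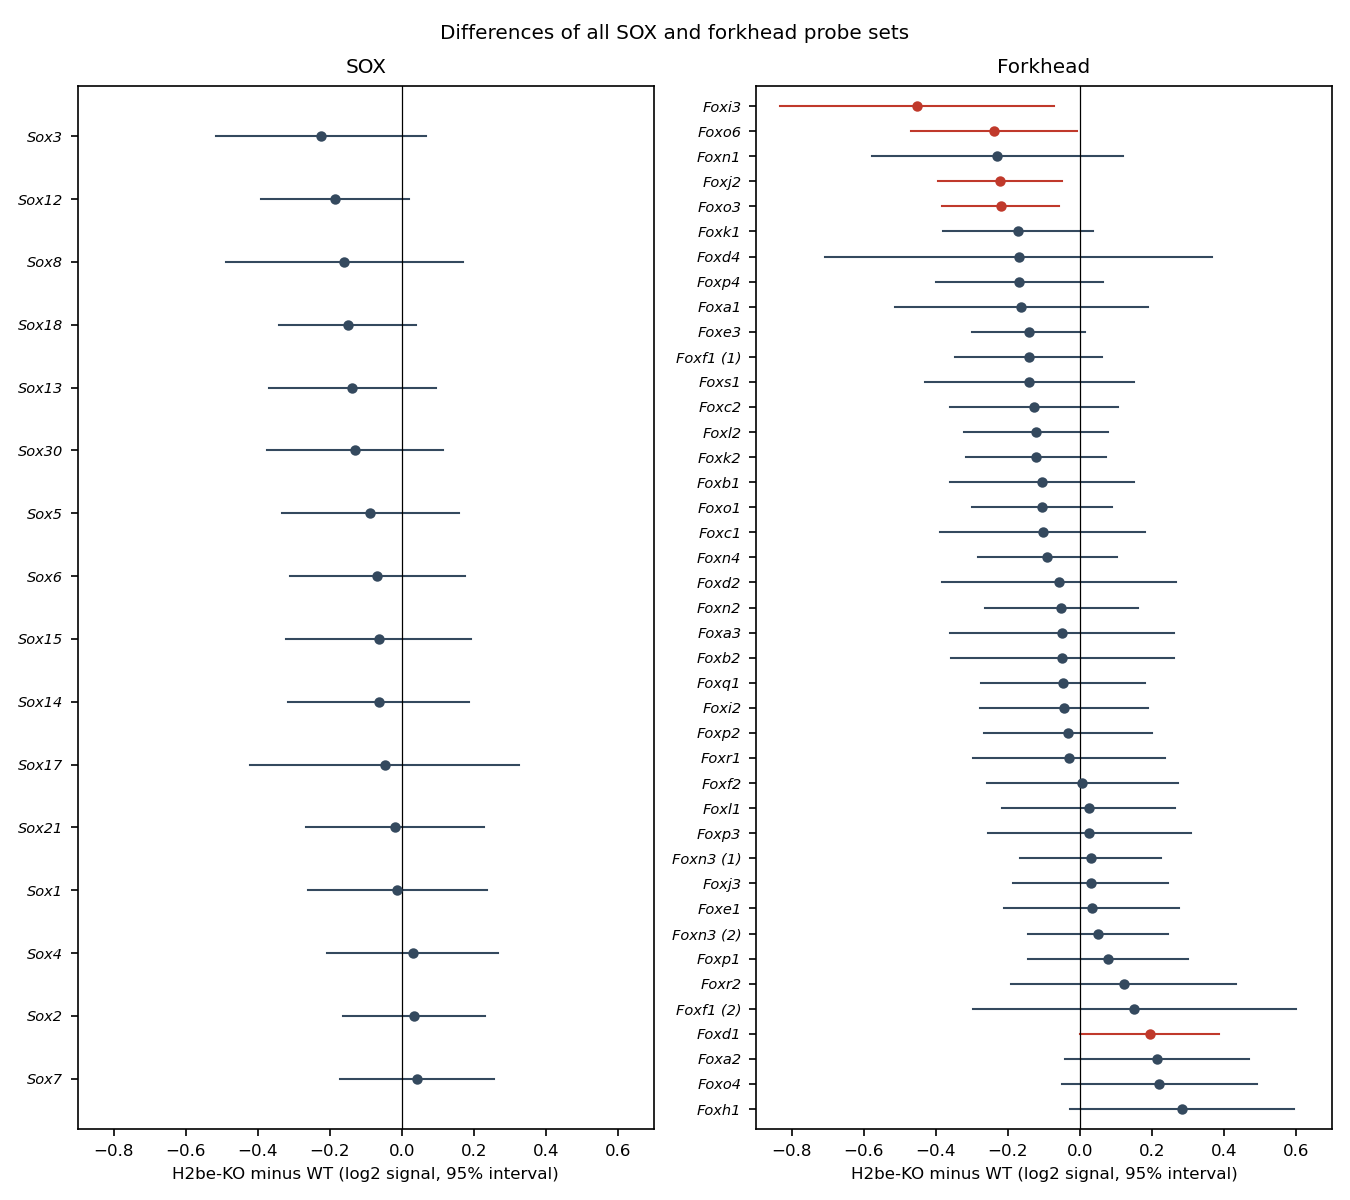
Difference in log2 signal between H2be-KO and WT (H2be-KO minus WT, x axis) for each of the 16 SOX probe sets (left) and 41 forkhead probe sets (right), with limma's 95% interval over 6 arrays per genotype. Red marks the 5 members called at an unadjusted p under 0.05, and numbers in brackets tell apart probe sets of 1 gene. In all, 40 of 57 points lie left of 0, and 52 intervals cross it.

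The chips themselves were alike. The median log2 signal of an array was 7.84 to 7.90, and pairs of arrays correlated with r between 0.951 and 0.985 across probe sets. The H2be probe set, annotated under the symbol H2bc21, read 11.51 to 11.84 in H2be-KO with a median of 11.66, and 11.63 to 12.12 in WT with a median of 11.93 (difference −0.24, SE 0.094, exact permutation p = 0.019). Where its probes lie relative to the replaced coding sequence is not given in the sources used here, so this reading does not check the labels. The defining markers of mature olfactory neurons were bright in every array, with Omp at 12.78 or more. None of the 10 markers of that list was called, beside 3.78% of all probe sets called higher and 1.77% lower. Among markers of horizontal basal cells, which renew the tissue after injury, 1 of 6 was lower (Itgb4, −0.26, beside 1.77% of all probe sets). The list median was −0.125, and 6 of 6 differences were below 0 (beside 43.8% of all probe sets). The list's mean signal was 8.23 to 8.54 in H2be-KO arrays and 8.21 to 8.86 in WT arrays. In the other direction, beside 3.78% of all probe sets, 1 of 9 probe sets of immature neurons was higher (Gap43, 0.25, list median 0.12). So were 1 of 7 of globose basal progenitors (Top2a, 0.32, list median 0.071) and 1 of 6 of ensheathing glia (Fabp7, 0.22, list median 0.099). The reporter in the H2be-KO allele itself carries a short stretch of GAP43, and whether the Gap43 probes read its RNA was not tested. Of the immature neuron probe sets 7 were above 0 and 2 below it, and of the progenitor probe sets 5 were above and 2 below. Of the glial markers 5 were above 0 and 1 below it. The latter was Sox10, also an excluded family member (−0.17, SE 0.116, exact permutation p = 0.184, not called). The mean signals of these lists overlapped between genotypes, at 10.13 to 10.54 in H2be-KO and 10.18 to 10.41 in WT, 7.89 to 8.28 and 7.79 to 8.09, and 8.41 to 8.87 and 8.43 to 8.80. The part of these cell types in the differences of the members was not tested. Some arrays stood apart. WT arrays 4 and 6 had the lowest limma array weights, 0.406 and 0.393, and the tooth enamel gene Amelx read 11.87 and 11.66 in H2be-KO arrays 1 and 6 but at most 6.03 in all other arrays.

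Of the 4 FOXO genes, 0 were called higher and 2 lower, beside 3.78% and 1.77% of all probe sets, and the small FOXI and FOXJ classes each had 1 of 2 called lower. Foxo3, a main transcriptional output of low insulin signalling and stress that restrains the cell cycle and holds stem cells quiescent, had signals of 9.71, 9.84 and 9.97 in H2be-KO (lowest, median and highest array), and of 9.90, 10.07 and 10.18 in WT. The groups overlapped only through WT array 2, the lowest of the WT arrays, and 4 H2be-KO arrays of 6 were under all WT arrays. The means were 9.85 ± 0.095 (SD, n = 6) and 10.07 ± 0.095 (SD, n = 6), a difference of −0.22 (SE 0.076, 95% interval −0.38 to −0.06), or 0.859 of the WT signal, with a limma p of 0.011 and a two-sided exact permutation p of 0.006. Without H2be-KO arrays 1 and 6 together, the arrays with high Amelx, the difference was −0.17 and the call was lost.

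Foxo6, the family member most restricted to neurons and one whose product stays largely nuclear, read 7.33, 7.68 and 7.94 in H2be-KO and 7.69, 7.88 and 8.12 in WT. The genotypes overlapped, with H2be-KO array 6 the lowest of all 12 and WT array 4 the highest. The difference was −0.24 (SE 0.109), with a limma p of 0.044 and an exact permutation p of 0.054, and it was no longer called in 11 of 23 alternative settings. Without H2be-KO array 6 it was −0.17, and without H2be-KO arrays 1 and 6 together −0.13, neither of them called.

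The remaining FOXO genes were not called and did not share a sign. Foxo1, the FOXO gene best known from insulin action in liver and from B cells, had means of 9.70 ± 0.097 (SD, n = 6) in H2be-KO and 9.80 ± 0.174 (SD, n = 6) in WT, a difference of −0.11 (SE 0.091, exact permutation p = 0.234). WT array 4 was highest for Foxo1 at 10.13, against 9.79 for the next. Foxo4, an X-linked gene of the same class, had means of 8.42 and 8.20, a difference of 0.22 (SE 0.127, exact permutation p = 0.13), with WT array 4 lowest at 7.72. Foxo4 passed in 3 of 23 alternative settings, with 0.30 without WT array 6. Over the 4 FOXO probe sets the median difference was −0.16.

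**Figure D2:**
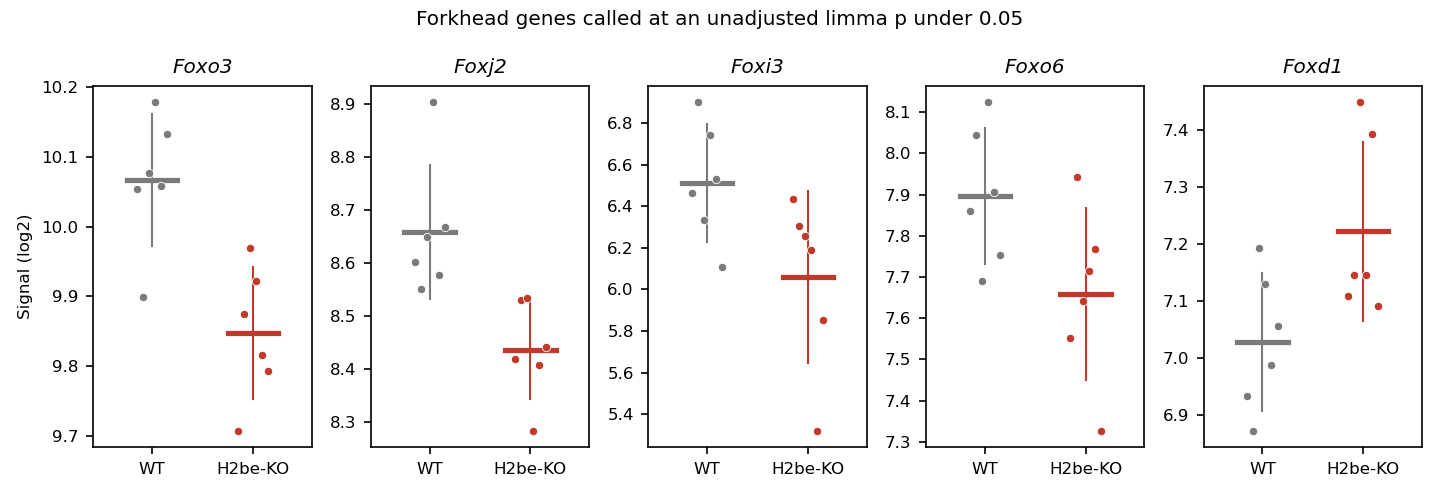
Log2 signal (y axis, its own scale in each panel) of the 5 called forkhead genes in 6 WT arrays (grey) and 6 H2be-KO arrays (red); bars are means and vertical lines are 1 SD on either side. Only for Foxj2 do the genotypes not overlap.

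Genes that act before and after FOXO proteins were taken from lists of known pathway members. The upstream list held genes of the PI3K-AKT pathway, which phosphorylates FOXO proteins. It also held other regulators of FOXO proteins, among them Stk4, Mapk8, Sirt1, Usp7, Mdm2 and Skp2. Of its 24 probe sets, 1 was higher (4.17%, near the 3.78% of all probe sets) and 0 were lower (beside 1.77%). The one was Mdm2, a ubiquitin ligase that can act on FOXO proteins and on p53, at 9.22 against 9.03 (difference 0.18, SE 0.085, exact permutation p = 0.028), with 3 of 6 H2be-KO arrays above every WT array. The kinases Akt1 and Akt2 were not called, with differences of −0.11 for Akt1 and of −0.076 and −0.052 for the probe sets of Akt2. The list's median was 0.070, beside 0.023 over all probe sets.

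Of 31 probe sets for known FOXO target genes, 3 were higher (9.68%, beside the 3.78% of all probe sets) and 0 were lower (beside 1.77%). Their median was 0.037, beside 0.023 over all probe sets. Of the 31, 23 were above 0 and 8 below it (25.8%, beside 43.8% of all). Ccng2, which encodes a cyclin that slows the cell cycle, read 9.07 against 8.83, a difference of 0.24 (SE 0.090, exact permutation p = 0.015). Atg12, which encodes a ubiquitin-like protein needed for autophagosome growth, read 8.57 against 8.32, a difference of 0.24 (SE 0.085, exact permutation p = 0.009). Pdk4, which encodes a kinase that inhibits pyruvate dehydrogenase, read 7.32 against 7.02, a difference of 0.31 (SE 0.142, exact permutation p = 0.078). In each of these 3 genes, 3 of 6 H2be-KO arrays lay above every WT array. The sestrin gene Sesn1, itself on the target list and a near neighbour of Foxo3 on the chromosome, was not called (difference 0.13, SE 0.112).

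**Figure D3:**
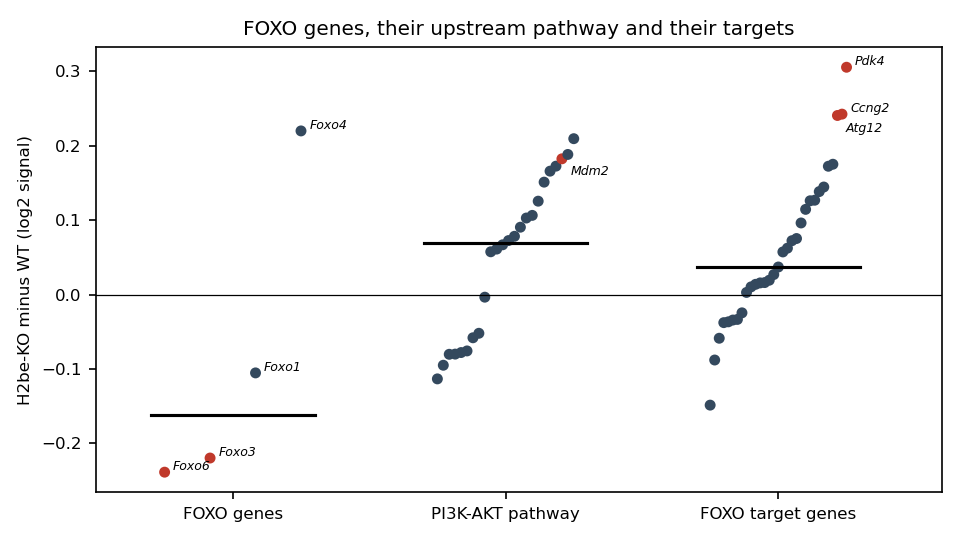
Difference in log2 signal (H2be-KO minus WT, y axis) for 4 FOXO probe sets, 24 probe sets of the upstream list and 31 FOXO target probe sets. Each point is 1 probe set, sorted within a list. The upstream list, marked PI3K-AKT pathway on the axis, also holds other regulators of FOXO proteins. Red marks those called at an unadjusted limma p under 0.05 and black bars are the list medians of −0.16, 0.070 and 0.037.

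Foxj2 was the member whose genotypes were most cleanly apart. It encodes a forkhead activator that binds more than 1 kind of site and was first studied in germ cells and early embryos. Signals were 8.28, 8.43 and 8.53 in H2be-KO and 8.55, 8.62 and 8.90 in WT. Every H2be-KO array was below every WT array, in 1 of 57 members, where this held for 0.0888% of all probe sets, and the opposite, every H2be-KO array above every WT array, held for 0 of 57 members beside 0.0888% of all. The gap between the groups was narrow, and WT array 4 stood above the others. The means were 8.44 ± 0.092 (SD, n = 6) and 8.66 ± 0.127 (SD, n = 6), a difference of −0.22 (SE 0.081, 95% interval −0.39 to −0.05, limma p = 0.015) and an exact permutation p of 0.0022, the smallest that 6 against 6 arrays can give. Foxj2 was called in all 23 alternative settings, with differences from −0.25 to −0.16, and without WT array 4 the difference was −0.17 and still called. Its class partner Foxj3 was not called (difference 0.03, SE 0.101).

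Foxi3, which encodes a factor of ectodermal placodes and appendages, had the largest difference of the members, from dim signals. The arrays read 5.32, 6.22 and 6.43 in H2be-KO and 6.11, 6.50 and 6.90 in WT, so that the genotypes overlapped and H2be-KO array 5 lay far below the rest. The means were 6.06 ± 0.412 (SD, n = 6) and 6.51 ± 0.283 (SD, n = 6), a difference of −0.45 (SE 0.178, 95% interval −0.83 to −0.07, exact permutation p = 0.043). The call was lost without H2be-KO array 5 (−0.30), without WT array 2 (−0.38) and without WT array 4 (−0.41). Foxi2 was not called (difference −0.045, SE 0.11). Foxi1, a factor of ion-transporting cells that is outside the members, was lower (8.21 against 8.42, difference −0.20, SE 0.091, exact permutation p = 0.045).

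Foxd1, a factor of stromal cells in kidney and of the retina and forebrain, was the only member called higher. It read 7.09, 7.14 and 7.45 in H2be-KO and 6.87, 7.02 and 7.19 in WT, and H2be-KO arrays 3 and 5 lay above every WT array while the other 4 overlapped. The difference was 0.19 (SE 0.091, 95% interval 0.00 to 0.39), or 1.14-fold, with a limma p of 0.049 and an exact permutation p of 0.039, and 6 of 6 H2be-KO arrays were above the WT median. It was not called in 11 of 23 alternative settings, among them both other scalings of the arrays (0.19 after quantile normalization and 0.18 after median centring). Without H2be-KO array 3 it was 0.15 and not called. Most markers of fibroblasts and pericytes ran the same way, with 8 of 10 differences above 0, 2 below it and a list median of 0.13. Of the 10, 2 were called higher (beside 3.78% of all probe sets), Rgs5 and Lum, and 0 lower (beside 1.77%). The list's mean signal was 9.97 to 10.13 in H2be-KO arrays and 9.81 to 10.04 in WT arrays. The dimmest marker had a mean log2 signal of 7.22 over all arrays. The part of these markers in the Foxd1 difference was not tested. The other FOXD genes, Foxd2 and Foxd4, had differences of −0.058 and −0.17 and were not called.

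Each called gene was also set beside its nearest genes in the RefSeq order, up to 2 on either side, which gave 19 genes and 24 probe sets. Of these, 0 were higher and 1 was lower, beside 3.78% and 1.77% of all probe sets. It was an Hivep3 probe set near Foxo6 (difference −0.24, exact permutation p = 0.032), while the second Hivep3 probe set gave −0.016. The range was −0.24 to 0.16 with a median of 0.040. The neighbours of Foxo3 (Sesn1, Armc2, Afg1l and Snx3) and those of Foxj2 (Nanog, Slc2a3, C3ar1 and Necap1) were not called. RefSeq also places non-coding genes across Foxo3 (Gm38485) and Foxo6 (Gm52678) and the microRNA gene Mir7231 within Foxj2, and whether the probes separate these was not given.

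Several further forkhead members lay near the threshold. Foxe3, a lens factor, read 8.04, 8.18 and 8.33 in H2be-KO and 8.21, 8.33 and 8.40 in WT, a difference of −0.14 (SE 0.074) with a limma p of 0.072 and an exact permutation p of 0.024. Foxk1, a repressor that works with the SIN3 complex and answers to nutrient signalling, read 8.42, 8.50 and 8.61 against 8.54, 8.62 and 9.11, a difference of −0.17 (SE 0.098) with a limma p of 0.097 and an exact permutation p of 0.035. The Foxk1 difference was −0.089 without WT array 4, the array at 9.11. Its paralogue Foxk2 had a difference of −0.12 (SE 0.091, exact permutation p = 0.162), and its WT array 4 was again the highest, at 9.21.

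Foxh1 and Foxa2 had positive differences that were not called. Foxh1, which carries Nodal signals through SMAD proteins, read 5.80, 6.08 and 6.43 in H2be-KO and 5.47, 5.72 and 6.28 in WT (difference 0.28, SE 0.146, exact permutation p = 0.113), and all 6 H2be-KO arrays lay above the WT median. Foxa2, a pioneer factor of endoderm and floor plate, had a difference of 0.21 (SE 0.119, exact permutation p = 0.102). Foxa1 and Foxa3 had differences of −0.16 and −0.050. Foxh1 passed in 4 of 23 alternative settings and Foxa2 in 1.

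FOXP genes, which encode repressors expressed in many neurons, gave no called member. Foxp1 had means of 8.58 ± 0.215 (SD, n = 6) in H2be-KO and 8.50 ± 0.128 (SD, n = 6) in WT, a difference of 0.078 (SE 0.104). Foxp2, the gene tied to vocal learning and speech, had means of 7.61 and 7.65, a difference of −0.033 (SE 0.110), and WT array 4 read 8.15 where the next WT array read 7.62. Foxp4 had a difference of −0.17 (SE 0.109, exact permutation p = 0.154), and Foxp3, the factor of regulatory T cells, of 0.026 (SE 0.133). Of 15 probe sets for corepressors and partners of FOXP and FOXK proteins, 0 were higher (beside 3.78% of all probe sets) and 1 was lower (6.67%, beside 1.77%), with a median of −0.019. The lower one was Nfatc1, a calcium-regulated factor that binds DNA with FOXP proteins, whose 6 H2be-KO arrays (9.03 to 9.19) lay below all 6 WT arrays (9.21 to 9.67), as in 0.0888% of all probe sets, a difference of −0.21 (SE 0.086, exact permutation p = 0.0022).

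The remaining forkhead classes were not called. The FOXC genes of mesenchyme and vessel development had differences of −0.10 (Foxc1, SE 0.134) and −0.13 (Foxc2, SE 0.110). Foxf1, also a mesenchymal gene, gave −0.14 (SE 0.096) from 1 probe set and 0.15 (SE 0.211) from the other, which was dim and fell under a log2 signal of 5 in 1 array, so the pair disagreed in sign. The probe sets of Foxn3, a repressor involved in the cell cycle checkpoint, gave 0.029 (SE 0.092) and 0.050 (SE 0.091). Over the 5 FOXN probe sets the differences ran from −0.23 to 0.05, with Foxn1, the thymus and hair gene, at −0.23 (SE 0.164). In RefSeq order Foxf1, Foxc2 and Foxl1 lie together, as do Foxq1, Foxf2 and Foxc1, and none of these 6 genes was called.

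No SOX gene was called in either direction, with 0 of 16 at an unadjusted limma p under 0.05 and 0 of 16 by the exact permutation test. Over all probe sets, limma called 3.78% higher and 1.77% lower, and the exact permutation test 3.98% and 2.03%. A count of 0 among 16 is near that background and is no result about the SOX family. Sox2, which keeps olfactory stem cells and supporting cells in their state, read 10.82, 10.96 and 11.13 in H2be-KO and 10.77, 10.91 and 11.17 in WT, so that the genotypes lay over one another. The means were 10.98 ± 0.108 (SD, n = 6) and 10.94 ± 0.174 (SD, n = 6), a difference of 0.03 (SE 0.092, 95% interval −0.16 to 0.23, exact permutation p = 0.677). RefSeq places Sox2 inside the long non-coding gene Sox2ot. Sox3, a near relative on the X chromosome, read 7.75, 8.13 and 8.27 in H2be-KO and 7.71, 8.40 and 8.52 in WT. WT array 6 was the lowest of all 12 and lay apart from the other WT arrays. The difference was −0.22 (SE 0.136, exact permutation p = 0.156), and −0.34 (limma p = 0.0045) without that array. Sox1 had a difference of −0.012 (SE 0.117).

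Among the other SOX groups, Sox12, a SOXC gene of newborn neurons, came nearest to a call. It read 7.24, 7.47 and 7.84 in H2be-KO and 7.49, 7.71 and 7.79 in WT, with 4 H2be-KO arrays under all WT arrays and array 3 above all of them. The difference was −0.19 (SE 0.096, limma p = 0.074, exact permutation p = 0.063), and it passed in 5 of 23 alternative settings, with −0.25 (limma p = 0.010) without H2be-KO array 3. Its relative Sox4 had a difference of 0.03 (SE 0.112), and the excluded Sox11 one of 0.16 (SE 0.107). The SOXD genes, which lack a domain for activating transcription, were all below 0 and uncalled: Sox13 at −0.14 (SE 0.109), Sox5 at −0.088 (SE 0.115) and Sox6 at −0.068 (SE 0.114).

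The SOXF genes of endothelium had differences of −0.15 for Sox18 (SE 0.089, exact permutation p = 0.1), −0.047 for Sox17 (SE 0.175) and 0.042 for Sox7 (SE 0.1). Sox18 read 7.16, 7.41 and 7.54 in H2be-KO and 7.43, 7.49 and 7.69 in WT, and 3 H2be-KO arrays were under all WT arrays. None of the 12 endothelial markers was called, beside 3.78% of all probe sets called higher and 1.77% lower. Their median was −0.031, and the mean signal of the list was 7.24 to 7.71 in H2be-KO arrays and 7.33 to 7.74 in WT arrays. Sox14 and Sox21, SOXB2 genes that act as repressors, had differences of −0.064 (SE 0.118) and −0.019 (SE 0.115), Sox8 one of −0.16 (SE 0.154), Sox15 one of −0.064 (SE 0.120) and the germ cell gene Sox30 one of −0.13 (SE 0.115).

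**Figure D4:**
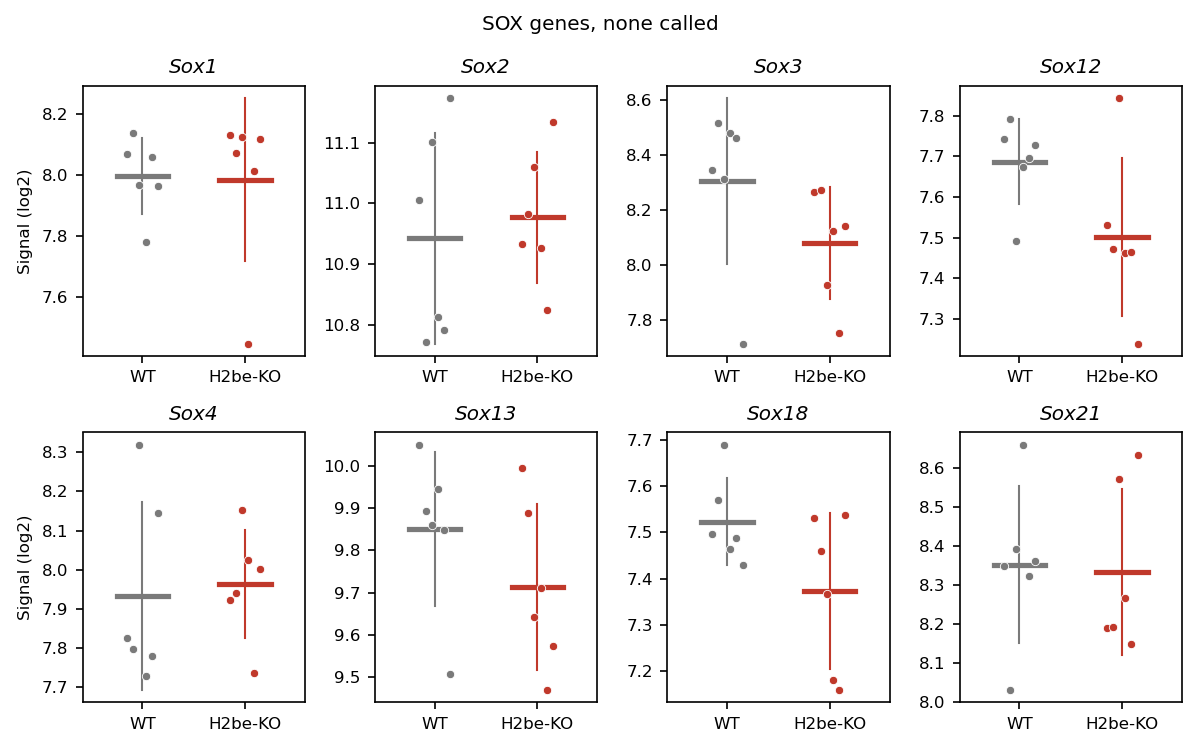
Log2 signal (y axis, its own scale in each panel) of 8 SOX genes in 6 WT arrays (grey) and 6 H2be-KO arrays (red); bars are means and vertical lines are 1 SD on either side. The genotypes overlap for every gene, and the low WT array of Sox3 and the high H2be-KO array of Sox12 stand apart from their groups.

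WNT effectors and partners of SOX proteins, taken as 1 list, gave 1 higher and 1 lower probe set of 14. This was 7.14% each, beside 3.78% and 1.77% of all probe sets, with a median of −0.056, so that a single probe set made up each count. Pou3f3, a POU factor of cortical and kidney development that pairs with SOX proteins on DNA, read 5.68 to 6.35 in H2be-KO and 6.10 to 6.62 in WT, a difference of −0.42 (SE 0.128, exact permutation p = 0.017). Kpna2, a nuclear import receptor, was higher on 1 of its 3 probe sets (0.20, SE 0.093, exact permutation p = 0.045), and the other 2 gave 0.12 and 0.13 without a call. The WNT effector Ctnnb1 was not called (difference 0.051, SE 0.074). The 7 family members left out of the main set had 0 higher and 1 lower (beside 3.78% and 1.77% of all probe sets), the Foxi1 given above, and a median of −0.17, with Foxj1, the gene of motile cilia, at −0.18 (SE 0.092, exact permutation p = 0.056).

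Array by array, the members' signals were centred below their 12-array means in 4 of 6 H2be-KO arrays and in 2 of 6 WT arrays. The median deviation of the 57 probe sets was −0.091 to 0.067 in H2be-KO arrays and −0.036 to 0.152 in WT arrays, beside −0.038 to 0.043 and −0.024 to 0.012 for all probe sets. The ranges of the genotypes overlapped for the members. WT array 4 was the highest at 0.152, and without it the members' median difference was −0.052, with 38 of 57 below 0, 3 called higher (5.26%, beside 2.76% of all probe sets in that setting) and 2 called lower (3.51%, beside 1.11%). Without WT array 6, 1 member was called higher (1.75%, beside 8.05%) and 9 of 57 were called lower (15.8%, beside 5.51%).

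**Figure D5:**
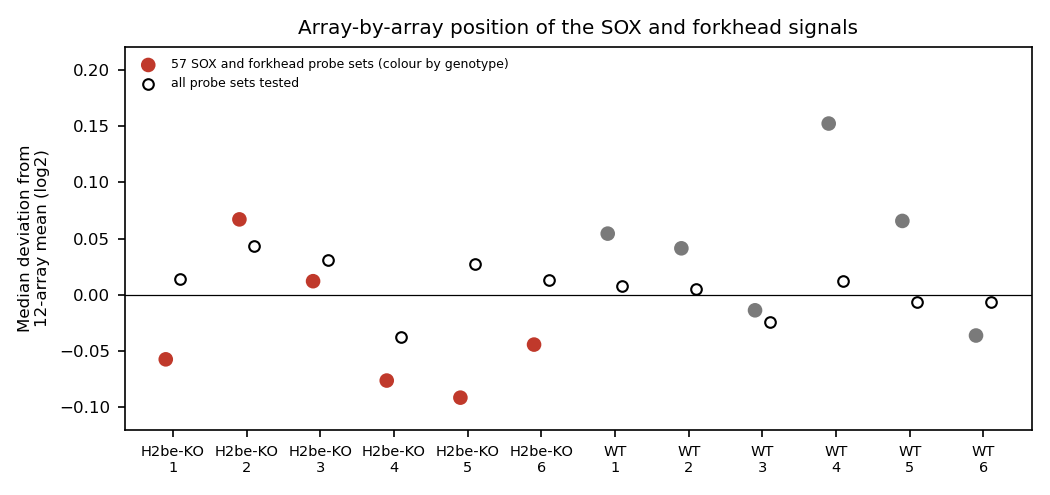
Median deviation of log2 signals from each probe set's mean over 12 arrays (y axis), for the 57 SOX and forkhead probe sets (filled, red H2be-KO, grey WT) and for all 28151 probe sets tested (open circles), by array. The members' points range from −0.091 to 0.152, overlap between genotypes, and are highest in WT array 4.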

How the data were processed

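RNA from whole MOE was measured on Affymetrix Mouse Gene 1.0 ST arrays, 6 per genotype, grouped by sample title. As the study's methods describe, the authors checked scanner files for outliers, summarised probes by IterPLIER and normalised arrays by sketch-quantile in Affymetrix Expression Console (versions and genome build not given in the sources used here). What was deposited is a log2 signal for each of 35556 probe sets, so a shift common to most transcripts was removed before deposition. Arrays carry no counts, and their number limits the precision. At most 0.0276% of probe sets had the same value on any 2 arrays. The sources used here name no batch, slide or scan.

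Of 28944 experimental probe sets, 21789 carried 1 symbol in the platform annotation, 1621 several and 5534 none, and the 6612 control probe sets were left out. The 28151 with a mean log2 above 5 were fitted with genotype alone in limma 3.58.1 (lmFit and eBayes, R 4.3.3), tested on simulated data first, with Benjamini-Hochberg adjustment over all of them. Single genes also carry a two-sided exact permutation p over every choice of 6 arrays from 12, beside limma's standard errors. Probe sets of a gene were kept apart.

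The members, gene lists and naming rule were chosen with earlier results of these data known. The rule took every called member, the 6 SOX and 8 forkhead members of highest mean signal, the 8 uncalled members with the smallest p, Foxo, Foxp and Sox2 genes of known neuronal place, genes with several probe sets, and up to 4 called members of each list. One gene that the rule lists is not reported here. Other genes named were chosen after their values were seen. The alternatives left out the filter, raised values under log2 5 to 5, changed the scaling, the moderation, the weights or the test, added a replicate block, averaged probe sets, or left out arrays. Array pairs of equal number were compared by the correlation of their deviations from the group means, which was not above 0.1 in every pair, so the numbers were not taken to pair the samples. The main fit and the exact permutation p thus take no account of any such pairing.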

Additional observations from a re-analysis of the deposited data

Results flagged for a closer look

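Of 58 sets of 6 arrays examined (29 named probe sets in each genotype), 8 held 1 array whose distance to its nearest neighbour, as a share of the set's whole range, was over the 95% critical value of Dixon's test for 6 samples, which chance exceeds in about 1 in 20 sets. WT array 4 was the high one for 5 of them: Foxp2 (ratio 0.820, 8.15 against 7.62 for the next array), Foxk1 (0.761, 9.11 against 8.67), Foxk2 (0.680, 9.21 against 8.86), Foxj2 (0.668, 8.90 against 8.67) and Foxo1 (0.667, 10.13 against 9.79). WT array 6 was the low one for Sox3 (ratio 0.744, 7.71 against 8.31) and Sox13 (0.626, 9.51 against 9.85). H2be-KO array 4 was the low one for the dimmer Foxf1 probe set (ratio 0.635, 4.99 against 5.90).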

How the results depend on the processing

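Across 23 alternative settings the called members kept their direction. Foxj2 was called in 23, Foxo3 in 22, Foxi3 in 20, and Foxo6 and Foxd1 in 12 each. Against 1 member higher and 4 lower, 0 were higher with values under log2 5 raised to 5, after quantile normalization, after median centring and with trend and robust moderation. With array weights 2 were higher and 9 lower. With the replicate block 3 were higher and 4 lower. Leaving out single arrays gave 0 to 3 higher (3 without WT array 4) and 2 to 9 lower (2 without WT array 4, 9 without WT array 6). The cause was not tested. Over all probe sets, the shares called higher and lower were 9.57% and 4.99% with array weights, 7.24% and 3.38% with the replicate block, and 2.93% and 3.20% after quantile normalization. The members' median difference stayed between −0.103 and −0.047 in these settings. No member reached an adjusted p under 0.05 in any of them. Without WT arrays 4 and 6 together, a setting chosen after seeing the data, 1 member was higher and 6 were lower, and 20 probe sets, none a member, passed an adjusted p under 0.05. Array pairs of equal number correlated at 0.025 to 0.592, and 4 of 6 arrays correlated best with their own number. Of uncalled named members, Sox2, Sox6, Sox21, Foxp2 and 1 Foxn3 probe set had differences on both sides of 0. Standard errors near 0.11 limit what 6 arrays per genotype can show.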
